A study of Caenorhabditis elegans with 2 samples.

Results

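The proteasome and CDC-48 genes of Caenorhabditis elegans were taken as the protein-coding genes whose name starts with pas-, pbs-, rpn-, rpt- or cdc-48, which gave 36 of the 19865 names of protein-coding genes outside the mitochondrial genome. Of these, 14 encode the core particle (7 pas and 7 pbs genes), 19 the regulatory particle (13 rpn and 6 rpt genes) and 3 encode CDC-48 proteins. The data are ChIP-seq, which recovers with an antibody the DNA fragments held by a protein, from 2 biological replicates numbered 3 and 4. Both came from whole hermaphrodite L1 larvae of strain GOU883, 6 h after the release from starvation that followed bleaching. The description names an anti-GFP antibody, whereas the antibody field names egl-13, and the labels do not settle which was used. The tag was GFP-FLAG at the C-terminus of EGL-13, a SoxD-type HMG-box transcription factor, and 1 of the labels calls it an eGFP fusion. There was 1 group and no contrast of conditions, and no untagged strain was analysed here. In whole animals, a site held in few cells and a site held weakly in many cannot be told apart.

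The 26S proteasome degrades proteins that carry ubiquitin chains. Its core particle is a barrel of alpha rings (PAS) that gate entry and beta rings (PBS) that hold the proteolytic sites. Its regulatory particle recognises and unfolds substrates through a ring of ATPases (RPT) and non-ATPase subunits (RPN). CDC-48 is a AAA ATPase that pulls ubiquitinated proteins out of membranes and complexes and hands them on. In C. elegans the transcription factor SKN-1 raises proteasome gene transcription when proteasome function falls. Many C. elegans transcripts are trans-spliced, so an annotated 5′ end need not be the start of transcription.

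A site here is an optimal peak whose summit lay between 1000 bp upstream and 200 bp downstream of an annotated 5′ end. Optimal peaks are those of the deposited list that passed a reproducibility (IDR) threshold, whose value is not given. Of these 2294 peaks, 64.8% were also among the 2294 strongest regions of both replicates. A listed peak therefore need not be strong in each replicate. The sequences below are on ce11 and run 5′ to 3′ on the strand of the named gene. They are printed because 6 of the 13 sites at these genes held the same 8 letters, ATTGTCAT or its reverse complement, within 100 bp of the summit, and capitals mark them. The window of cdc-48.1 was chrII:10563514-10563614, that of rpt-2 chrV:6017761-6017861 and that of rpt-4 chrII:43777-43877. The wider windows of rpn-2 and pbs-1 were chrIII:6198724-6198924 and chrIV:1709866-1710066. For rpn-11, only 30 bases around the motif are given, chrII:4044504-4044533. The site of rpn-3, at chrIII:8447110-8447210, was the second strongest of these genes and held no copy. All but rpn-2 and rpn-3 are minus-strand genes.
cdc-48.1: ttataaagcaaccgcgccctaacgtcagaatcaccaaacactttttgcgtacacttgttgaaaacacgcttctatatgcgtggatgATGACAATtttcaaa
rpn-11: cgtaccccgcaATTGTCATcctcacaattt
rpt-2: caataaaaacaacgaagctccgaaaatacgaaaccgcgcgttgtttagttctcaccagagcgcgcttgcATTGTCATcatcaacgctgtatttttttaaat
rpt-4: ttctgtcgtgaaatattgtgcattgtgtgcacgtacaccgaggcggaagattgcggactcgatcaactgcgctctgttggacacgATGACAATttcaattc
rpn-2: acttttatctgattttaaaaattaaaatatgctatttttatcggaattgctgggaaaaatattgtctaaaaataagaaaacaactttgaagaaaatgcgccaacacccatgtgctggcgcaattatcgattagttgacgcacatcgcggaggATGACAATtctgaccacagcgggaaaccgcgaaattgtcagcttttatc
pbs-1: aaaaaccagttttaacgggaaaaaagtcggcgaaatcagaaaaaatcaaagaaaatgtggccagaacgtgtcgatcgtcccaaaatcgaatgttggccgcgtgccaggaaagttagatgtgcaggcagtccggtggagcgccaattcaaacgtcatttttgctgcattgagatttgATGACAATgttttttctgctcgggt
rpn-3: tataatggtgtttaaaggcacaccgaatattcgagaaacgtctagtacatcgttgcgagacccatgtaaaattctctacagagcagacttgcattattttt

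Of the 36 genes, 12 carried a site (33.3%, exact 95% interval 18.6 to 51.0), against 8.46% of all protein-coding genes. They were pas-3, pas-4, pas-5, pbs-1 and pbs-7 of the core particle, rpn-2, rpn-3, rpn-9, rpn-11, rpt-2 and rpt-4 of the regulatory particle, and cdc-48.1. Counting only sites whose summit lay within 100 bp of one of the 2294 strongest regions of each replicate, 7 of the 36 had a site (19.4%), against 5.98% of all genes. Those 7 were cdc-48.1, rpn-3, rpn-11, rpt-2, pbs-1, pbs-7 and pas-4. The pooled list also holds weaker regions that served as input to the reproducibility step, and 28 of the 36 had a pooled summit in the window, against 43.1% of all genes. With the stronger 50% of optimal peaks, the count was 6, against 5.09% of all genes. Sites can be shared by neighbouring genes, so intervals cover counting of genes only.

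**Figure D1:**
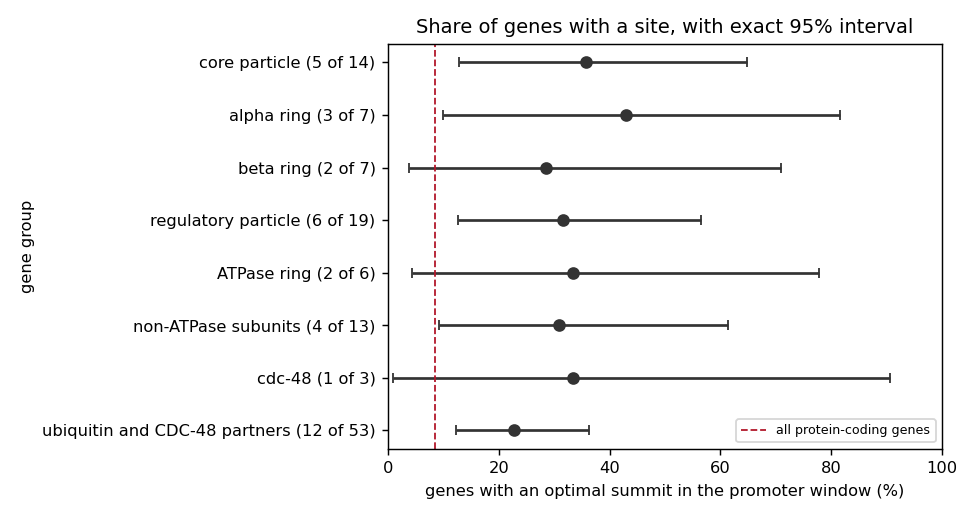
Percentage of genes with an optimal summit in the promoter window, by gene group (points), with exact 95% intervals for counting of genes (bars); the dashed line is the share of all protein-coding genes, 8.46%. Core and regulatory particle lie at 35.7% and 31.6%, with wide and overlapping intervals.

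Both particles carried sites, and their shares could not be told apart at these gene numbers. A site lay at 5 of 14 core genes (35.7%, exact 95% interval 12.8 to 64.9) and at 6 of 19 regulatory genes (31.6%, 12.6 to 56.6). The difference was 4.14 percentage points, with a Newcombe 95% interval of −25.5 to 34.4, so these counts allow a large difference in either direction. Its sign turned when each site went to the nearest 5′ end (−4.89 points), with the stronger 50% of peaks (−1.50) and with all pooled regions (−7.52). In the other settings it stayed positive, up to 14.7 points without replicate 4. Within the core, 3 of 7 alpha-ring and 2 of 7 beta-ring genes had a site. Within the regulatory particle, 2 of 6 ATPase and 4 of 13 non-ATPase genes had one.

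In the pooled list, the strongest regulatory sites had higher values than any core site. The strongest core site, at pbs-1, had a pooled signal value of 115 (a score given with the peak, on an unstated scale). There, 3 regulatory sites (rpn-3, rpn-11 and rpt-2) exceeded it. In each replicate, rpn-3 and rpn-11 also exceeded every core site. In replicate 4, rpt-2 (37.4) was below pbs-1 (59.9) and pas-4 (41.0). The median pooled signal value was 98.0 over the 6 core sites and 109 over the 6 regulatory sites. Over all 13 sites the median was 98.6, against 110 over all 1303 optimal promoter sites, so the typical site at these genes had a slightly lower value than the typical promoter site. Among the 13 sites, 7 were in the top of both replicates, against 67.4% of all promoter sites.

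**Figure D2:**
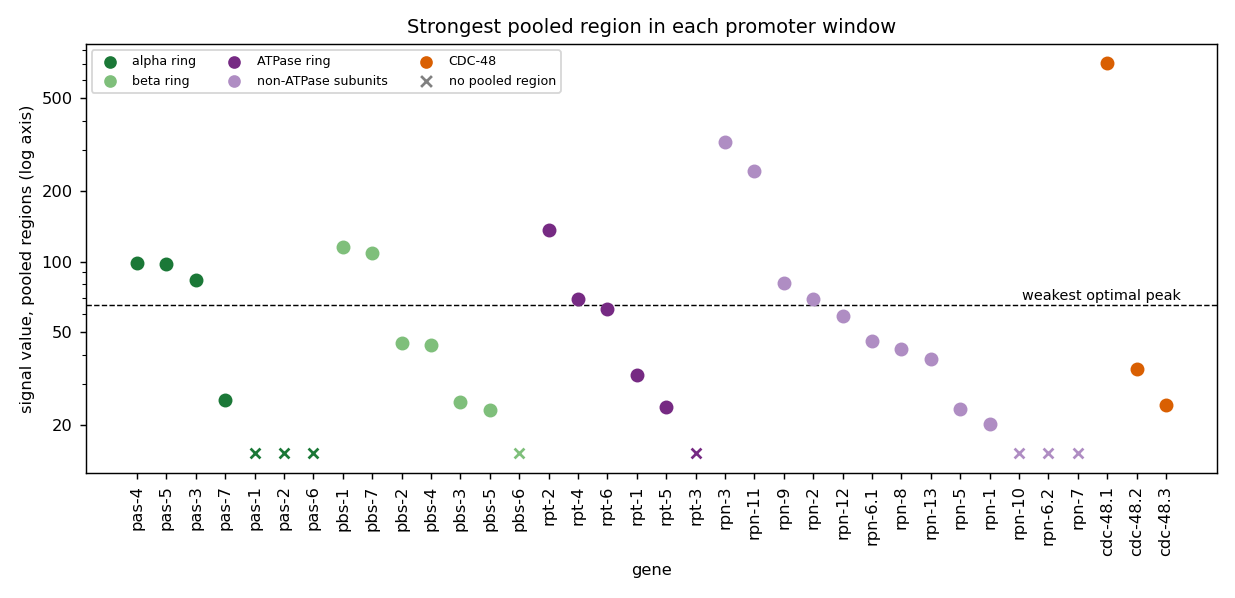
Signal value of the strongest pooled region in the promoter window of each of the 36 genes (log axis), grouped by subunit class; crosses are genes with no pooled region and have no value. The dashed line is the weakest optimal peak, at 65.3, and cdc-48.1 stands highest at 704.

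Among the CDC-48 genes, cdc-48.1 (WBGene00007352) carried the strongest site of the 36 genes and the others carried none. Its peak spanned chrII:10563445-10563688 and ranked 7 of the 2294 optimal peaks, with its summit between genes, 157 bp upstream of the gene. The signal value was 704 in the pooled list, 443 in replicate 3 and 259 in replicate 4, and the ranks in the replicate lists were 6 and 9. No divergent gene had its 5′ end within 1000 bp upstream, and no other protein-coding gene shared the site. The strongest pooled region at its paralog cdc-48.2 lay 883 bp upstream, with a signal value of 34.7 and rank 7014. The region at cdc-48.3, a more distant relative, had a signal value of 24.3 and rank 17216, and replicate 4 had no region in that window.

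In the regulatory particle, the strongest sites were those of non-ATPase subunits. The rpn-3 site (WBGene00004460, a lid subunit) spanned chrIII:8447066-8447261 and ranked 118. Its signal value was 326 in the pooled list, 186 in replicate 3 and 142 in replicate 4. The summit lay 193 bp upstream of rpn-3 and 251 bp upstream of the divergent hsp-110, which encodes a chaperone of the Hsp110 family. A noncoding RNA gene, C30C11.14, lay within 200 bp of this summit. The rpn-11 site (WBGene00004467), at the gene of the deubiquitinase that removes chains from substrates, spanned chrII:4044481-4044643 and ranked 241. Its signal value was 244 in the pooled list, 149 in replicate 3 and 93.9 in replicate 4, and its summit lay 9 bp upstream of the annotated 5′ end. These peaks and that of cdc-48.1 were 163 to 244 bp wide, narrower than the 384 bp of the other member peaks. In the optimal list, 15.3% of peaks were narrower than 384 bp.

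The other regulatory sites had lower signal values, and of these only rpt-2 was among the strongest 2294 regions of both replicates. At the ATPase gene rpt-2 (WBGene00004502) the signal value was 136 in the pooled list, 87.7 in replicate 3 and 37.4 in replicate 4. Its ranks in the replicates were 718 and 1281, and the noncoding RNA gene F29G9.10 lay within 200 bp of its summit. The rpn-9 site, at the gene of another lid subunit, had 81.4 in the pooled list and 27.0 in replicate 4. The strongest replicate 3 region in that window, at 47.9, had its summit 108 bp from the pooled summit, just past the 100 bp that counted as shared. The rpn-2 site, at the gene of a scaffold subunit, had 69.4 in the pooled list, 37.4 in replicate 3 and 26.8 in replicate 4. It ranked 2760 and 2377 in the replicates, below the strongest 2294 of each. The rpt-4 site also had 69.4 in the pooled list, with ranks 2487 and 1330. Its summit lay in an intron of the long rpt-4 isoform, 165 bp upstream of the nearest internal 5′ end and 80 bp upstream of nfyc-1, which encodes an NF-Y subunit.

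In the core particle, the beta-ring sites ranked above the alpha-ring sites in the pooled list, but not in either replicate. In replicate 3 a pas-5 site (rank 977) stood above both beta-ring sites. In replicate 4 pas-4 (rank 1097) stood above pbs-7 (rank 1430). The pbs-1 site (WBGene00003947) spanned chrIV:1709774-1710157, ranked 925 and had 54.5 in replicate 3 and 59.9 in replicate 4. Its ranks there were 1566 and 557. The pbs-7 site had a signal value of 109 in the pooled list, 65.1 in replicate 3 and 35.0 in replicate 4. The pas-4 site had 98.6, 56.5 and 41.0 in the same order, and the pas-3 site 83.4, 54.4 and 24.1. The noncoding RNA gene C36B1.16 lay within 200 bp of the pas-4 summit. The pas-3 rank in replicate 4, 2940, was below the strongest regions. The gene pas-5 had a pair of sites, 942 and 323 bp upstream, with pooled values of 97.4 and 70.0. The farther site was among the strongest regions in replicate 3 only (rank 977, against 2934 in replicate 4) and lay within 200 bp of the snoRNA gene F25H2.15. The nearer was among them in replicate 4 only (rank 1282, against 3055).

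**Figure D3:**
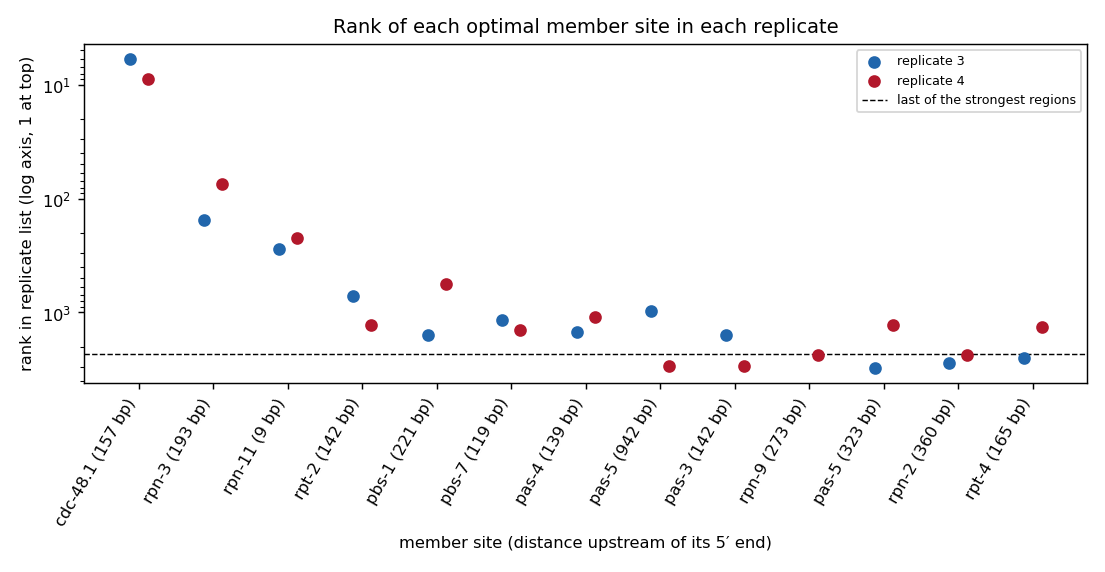
Rank of each of the 13 sites in the list of replicate 3 and of replicate 4 (log axis, strongest at the top); the dashed line is rank 2294, and rpn-9 has no replicate 3 summit within 100 bp. The sites of cdc-48.1, rpn-3 and rpn-11 rank within the top 275 in both replicates.

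The remaining 24 genes had no optimal site, and some of their best pooled regions fell just short of the threshold. The weakest optimal peak had a signal value of 65.3. Just inside it stood rpt-4 and rpn-2 (both 69.4), and just outside it rpt-6 (62.8, pooled rank 2425) and rpn-12 (58.4, rank 2685). Then came rpn-6.1, whose product is a lid subunit, at 45.6 and pbs-2 at 44.9. In replicates 3 and 4 the strongest regions in the rpt-6 window had 39.2 and 26.7, the latter with its summit 313 bp from the pooled one. At rpn-12 the ranks were 2359 in replicate 3 and 4489 in replicate 4. In all, 16 of the 24 had a pooled region, with values from 20.2 to 62.8. Besides those named, they were pas-7, pbs-3, pbs-4, pbs-5, rpn-1, rpn-5, rpn-8, rpn-13, rpt-1, rpt-5, cdc-48.2 and cdc-48.3.

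No pooled region was listed at 8 genes: pas-1, pas-2, pas-6, pbs-6, rpn-6.2, rpn-7, rpn-10 and rpt-3. The windows of pas-1, rpn-7 and rpt-3 held a region of replicate 3 only, and those of pas-2, pas-6 and rpn-10 a region of replicate 4 only. The strongest of these, at pas-1, had a signal value of 28.8. The windows of pbs-6 and rpn-6.2 held none in any list, so rpn-6.2 and its paralog rpn-6.1 differed in this way. The lists are cut at 30000 regions, and a window with none is one with nothing above that limit.

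Sites at these genes lay close to the 5′ end and mostly between divergent genes. Of the 13 summits, 12 lay within 400 bp upstream of the member's nearest 5′ end (internal at rpt-4), with a median of 165 bp. Among all optimal promoter sites, measured to the nearest 5′ end, 71.1% lay in that range and the median was 204 bp. A divergent protein-coding gene with its 5′ end within 1000 bp upstream was present at 22 of the 36 genes (61.1%), against 17.6% of all genes. Of these 22 genes, 8 had a site (36.4%), and of the other 14, 4 had one (28.6%). Over all genes, 20.5% of those with a divergent neighbour had a site and 5.89% of the others. The members' share of divergent neighbours thus moved with their share of sites, and its part in the result was not tested.

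Of the 13 sites, 9 also lay in the promoter window of another gene, against 33.7% of all promoter sites. All 9 summits lay upstream of an annotated 5′ end of both genes, which for rpt-4 was an internal one. The summit was nearer to the proteasome gene at 6 of the 9 sites. At pas-4 it was 139 bp from pas-4 and 138 bp from rpb-3, which encodes a subunit of RNA polymerase II. At rpt-2 it was 142 bp away, and 159 bp from aps-1, which encodes a clathrin adaptor subunit. The pas-3 summit was only 14 bp upstream of use-1, against 142 bp for pas-3. The distances were 221 and 299 bp for pbs-1 and K08D12.3, and 119 and 183 bp for pbs-7 and F39H11.1. They were 273 and 405 bp for rpn-9 and T06D8.9, and 360 and 410 bp for rpn-2 and C23G10.7. When each site went only to the nearest 5′ end, pas-3, pas-4 and rpt-4 lost theirs to use-1, rpb-3 and nfyc-1. That left 9 genes of the 36 (25.0%), 3 of them in the core, against 9.57% of all genes.

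**Figure D4:**
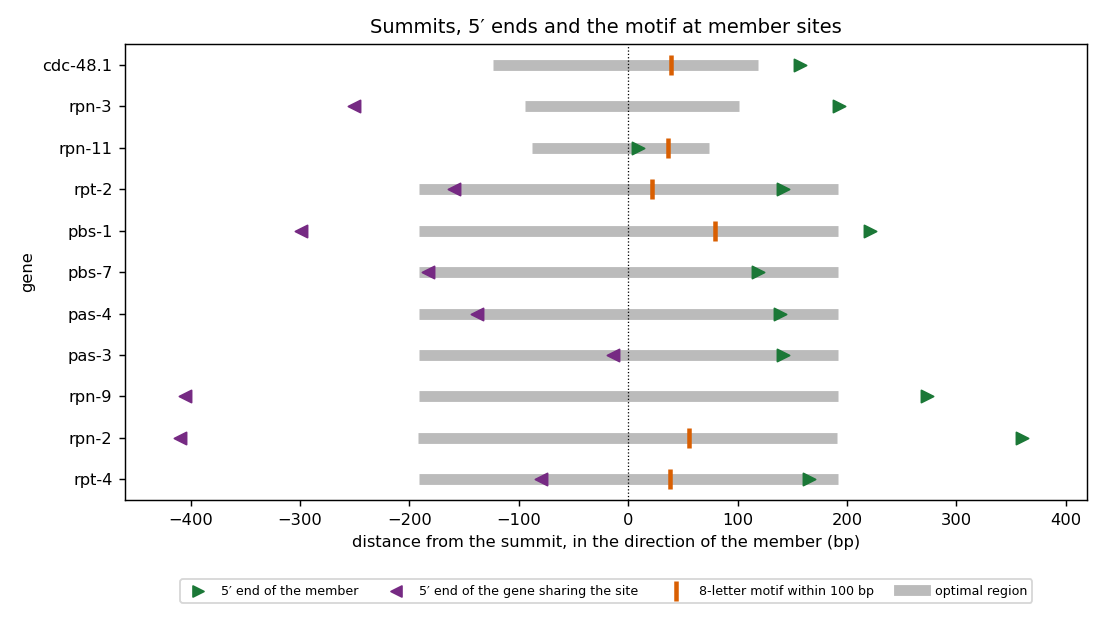
Position of the optimal region (grey), the member's 5′ end, the 5′ end of the gene that shares the site, and ATTGTCAT within 100 bp, as distance from the summit in bp, for the 11 genes with a single site. Motifs, where present, lie 22 to 79 bp from the summit on the side of the member. At rpt-4 the 5′ end drawn is an internal one.

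Short sequences around these summits were set against those of all promoter sites, reading both strands. TGTCAT, a form of the sequence known for SKN-1, lay within 50 bp of 4 of the 13 summits (30.8%), against 4.22% of all optimal promoter sites, 5.14% of all optimal peaks and 5.17% of weaker pooled regions. The 4 were at cdc-48.1, rpn-11, rpt-2 and rpt-4, and none was at a core gene. At each, the 6 letters were part of ATTGTCAT, the sequence capitalised above, which was chosen after these values were seen and overlaps TGTCAT. Within 100 bp of the summit, ATTGTCAT was held by 6 of the 13 sites (46.2%), those 4 with rpn-2 and pbs-1. Among the other 1290 promoter sites, 7 held it (0.543%). The strongest 2294 regions of 1 replicate and their own summits were also taken instead. TGTCAT was then within 50 bp at 3 of 9 sites of replicate 4 and at 3 of 10 sites of replicate 3. No share of all promoter sites in those lists stands beside these counts.

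The copies lay on the gene side of the summit at all 6 genes. The motif centre was 22 bp from the summit at rpt-2, 36 bp at rpn-11, 38 bp at rpt-4, 39 bp at cdc-48.1, 56 bp at rpn-2 and 79 bp at pbs-1. From the 5′ end of the gene it was 118 bp upstream at cdc-48.1, 120 bp at rpt-2 and 142 bp at pbs-1. It was 304 bp upstream at rpn-2 and 127 bp upstream of the internal 5′ end at rpt-4. At rpn-11 it was 27 bp downstream of the 5′ end, in the annotated 5′ UTR. It read along the strand of the gene at rpn-11 and rpt-2 and along the opposite strand at the other 4. TATCAT, the other SKN-1 form searched, lay within 50 bp of 0 of the 13 summits, against 2.61% of promoter sites.

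Promoters were also searched for the same letters whether or not they held a site. From 300 bp upstream to 50 bp downstream of any annotated 5′ end, ATTGTCAT was present at 8 of the 36 genes (22.2%), against 2.95% of all genes. These were cdc-48.1, pbs-1, rpn-11, rpt-2 and rpt-4, which had sites, and pas-2, rpn-1 and rpn-12, which had none. The 8 letters were chosen from the sites of these genes, so the 5 genes with sites only repeat copies counted above. Among genes without a site, 3 of 24 members held ATTGTCAT, against 534 of 18184 over all genes. The rpn-2 copy is the farthest from its gene and fell outside this window. TGTCAT was present at 16 of the 36 (44.4%), against 22.6% of all genes, in 5 of 14 core and 9 of 19 regulatory genes. The members had 1.22 annotated 5′ ends on average, fewer than the average of all genes, so they had no more windows to search. Matches describe the letters only.

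Of the other sequences searched, also on both strands, GACGCA and AACAAT had shares near those of all promoter sites, and GAGAGA a lower one. All are counts of 1 to 3 among 13 sites. GAGAGA lay within 50 bp of 1 of the 13 summits (7.69%, the nearer pas-5 site), against 22.1% of promoter sites. GACGCA lay at 3 (23.1%: rpn-2, rpn-9 and the nearer pas-5 site), against 18.1%, and AACAAT, the SOX sequence, at 1 (rpn-9), against 6.45%. With replicate 4 alone (without replicate 3) these counts were 1, 1 and 0. With replicate 3 alone (without replicate 4) they were 0, 0 and 0. For those lists no share of all promoter sites is given. ATGACAAT, the reverse complement of ATTGTCAT, ends in ACAAT, as AACAAT does. Which protein holds these letters was not tested. The median GC content of the 101 bp around the summit was 40.6% for the 13 sites and 47.5% for all promoter sites.

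Genes that act beside the proteasome were read from a list of 53 ubiquitin and CDC-48 partner genes. Sites lay at 12 of them (22.6%, exact 95% interval 12.3 to 36.2), against 8.46% of all genes. Of the 53, 10 (18.9%) had a site in the top of both replicates, against 5.98% of all genes. The strongest was at ufd-3, which encodes a CDC-48 adaptor, with a signal value of 286 in the pooled list, 199 in replicate 3 and 78.4 in replicate 4. Next came ubql-1, the gene of a ubiquilin that shuttles substrates to the proteasome, with 164, 98.3 and 68.0 in the same order. The site of aip-1, whose product binds the proteasome under arsenite stress, lay 14 bp downstream of its 5′ end and had 139, 83.8 and 58.1. The E2 enzyme genes ubc-25 and ubc-6 had 134 and 133 in the pooled list, and ubq-2, which encodes a ubiquitin fused to a ribosomal protein, had 132. Of the 21 ubc genes in the list, 5 had a site (23.8%, exact 95% interval 8.22 to 47.2), against the same 8.46%. TGTCAT lay within 50 bp of the summit at 1 of the 12 partner sites and within 100 bp at 4 of them (33.3%), against 4.22% and 7.83% of all promoter sites. ATTGTCAT lay within 100 bp of 0 of the 12 summits. In the promoter windows it was present at 4 of the 53 partner genes (7.55%), uba-1, ubxn-3, rad-23 and ubc-6, against 2.95% of all genes, and of these ubc-6 had a site. The skn-1 gene had no site.

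**Figure D5:**
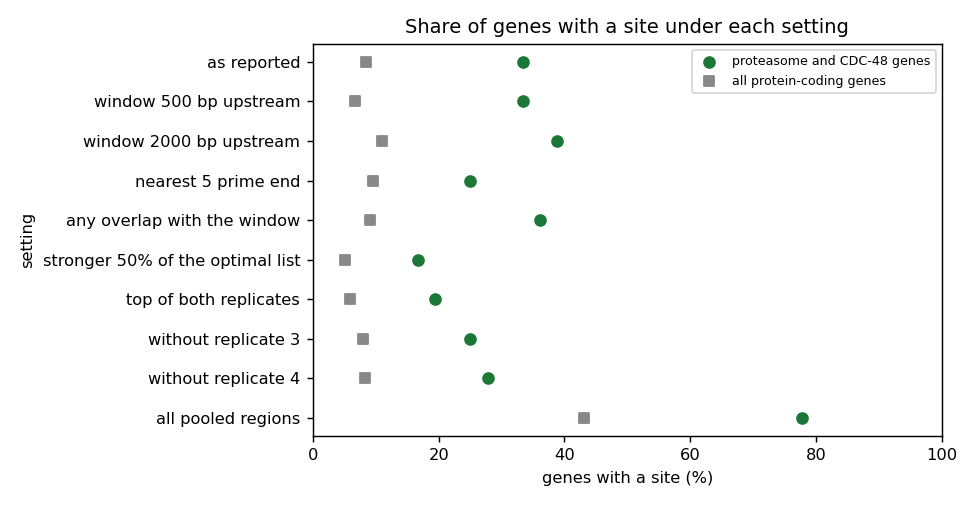
Percentage of the 36 proteasome and CDC-48 genes (circles) and of all protein-coding genes (squares) with a site, as reported and under each other setting. The circle lies to the right of the square in every setting shown, from 16.7% against 5.09% with the stronger 50% of peaks to 77.8% against 43.1% with all pooled regions.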

How the data were processed

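Region lists on ce11 were used as deposited: 1 per replicate and 1 on pooled reads (30000 regions each, background included, made with a control alignment), and the optimal list after an IDR (reproducibility) threshold, all made by the authors, per the deposited file descriptions. For the aligner, the peak caller and the threshold the sources used here give no name or value. The signal value deposited with each region has no stated scale and served only to rank regions and describe sites within a list. All 2294 optimal peaks were also pooled regions. Read depth is unknown, so no value has a depth-based error. Lists on ce10 were not used here.

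Summits were assigned to protein-coding 5′ ends of Ensembl release 115 (WBcel235, which is ce11), and sequences were read from the RefSeq genome of that build. The members and lists were chosen with earlier results of these data known, so no set test was run, and counts stand beside all genes. Every member is accounted for, and the 4 strongest without a site and the 6 strongest partner genes are given with values. Intervals are exact Clopper-Pearson or Newcombe, at the 95% level. Alternatives covered the window, assignment, threshold and each replicate alone. Window assignment was tested on simulated data. Python 3.11.15, NumPy 2.4.6, pandas 2.3.3, SciPy 1.17.1, statsmodels 0.14.6 and matplotlib 3.10.9 were used.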

Additional observations from a re-analysis of the deposited data

How the results depend on the processing

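The count of 12 members with a site was 14 with a 2000 bp window, 12 with 500 bp, 13 with any overlap of the region and 9 with nearest assignment, and it ranged from 9 to 10 when replicate 3 or 4 was left out. It fell to 6 with the stronger 50% of peaks (16.7%, against 5.09%) and to 7 with the top of both replicates (19.4%, against 5.98%). With all pooled regions it rose to 28 (77.8%, against 43.1%). In the same 3 settings, against the same shares of all genes, the core count was 2, 3 and 10 and the regulatory count 3, 3 and 15. Against the shares of all genes given above, the core count was 3 with nearest assignment and 4 to 5 with a replicate left out. The regulatory count was 5 with nearest assignment and 4 with either replicate left out. With all pooled regions the cdc-48 count was 3 and the partner gene count 33 (62.3%), against 43.1% of all genes. Within 100 bp of the summit GAGAGA and AACAAT were each at 2 member sites. With a replicate left out the range was 0 to 1 for GAGAGA and GACGCA, 0 for AACAAT and 3 for TGTCAT. Those counts have no share of all promoter sites beside them. These settings change which peaks or distances count; other causes were not tested. Among 42 named genes under 9 alternatives, having or lacking a site held in 338 of 378 comparisons. That total includes the 8 genes with no pooled region, which lacked a site throughout. It also includes comparisons whose outcome was fixed. The 2000 bp window, any overlap and all pooled regions cannot remove a site. The 500 bp window, the stronger 50% of peaks and the top of both replicates cannot add one. The total is therefore not a measure of how stable the sites are. The genes cdc-48.1, rpn-3, rpn-11, rpt-2, pbs-1 and pbs-7 kept a site under all 9. In contrast, pas-3, rpn-2 and rpt-4 kept theirs under 5 of the 9, and rpn-2 lost its site with either replicate left out. No paired analysis was possible because there was only 1 group. The read depth behind each site is unknown, which limits how firmly weak or missing sites can be read.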

Other observations

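The 7 optimal promoter sites outside the proteasome and CDC-48 genes that held ATTGTCAT within 100 bp of the summit were those of mans-3, lin-5, rad-54.L2, F10C5.3, the pair rbg-3 and rps-0, the pair C52E2.4 and C52E2.5, and the trio F39B2.3, hinf-1 and uev-1. They are named after their values were seen. Among them, rps-0 encodes a ribosomal protein and uev-1 a ubiquitin-conjugating enzyme variant.

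The proteasome gene rpn-12 and rad-23, which encodes a shuttle factor that brings ubiquitinated proteins to the proteasome, are divergent neighbours with 395 bp between their 5′ ends. Both promoter windows, which overlap and so can share a copy, held ATTGTCAT, and neither gene had an optimal site. The strongest pooled region of rpn-12, at a signal value of 58.4, peaked 180 bp upstream.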
